A study of Saccharomyces cerevisiae with 24 samples.

Results

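The loss of the protein kinase gene SNF1 was examined in budding yeast that already lacked TOR1 and grew under ammonia limitation (N-lim). The comparison sets 3 arrays of a snf1Δtor1Δ strain, titled snf1-tor1_N, against 3 arrays of a tor1Δ strain, titled tor1_N. These are 6 of the 24 arrays of the series, chosen by their titles, and 5449 genes were compared. Both groups lack TOR1, so the comparison reads the SNF1 deletion without it. The titles number the tor1_N arrays 9 to 11 and the snf1-tor1_N arrays 1 to 3, and what the numbers mark is not stated. Anything that goes with these numbers cannot be told apart from the SNF1 deletion. Each array measured the RNA of 1 aerobic chemostat culture of Saccharomyces cerevisiae at steady state, diluted at 0.1 per hour and kept at 30 °C and pH 5.0, with 1 g/L ammonium sulfate in the medium. For comparison, the same deletion was read in cells with TOR1 in the same medium (snf1Δ, titled snf1_N, against a reference strain, titled WT_N) and in tor1Δ cells with glucose as the limiting nutrient, 10 g/L in the medium (C-lim, titled snf1-tor1_C and tor1_C). Each of these groups had 3 arrays, which the series describes as biological replicates. The labels do not state the strain background, the number of clones per strain or how the deletions were made.

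Snf1, the yeast form of AMP-activated protein kinase, is known for switching on genes for carbon sources other than glucose, for respiration and for glycogen storage when glucose runs short, partly by acting on the repressor Mig1 and on activators such as Cat8, Adr1 and Hap4. Tor1 is a kinase of TOR complex 1 (TORC1), which drives ribosome production and growth and holds back nitrogen catabolic genes when good nitrogen sources are plentiful. Cells without TOR1 still have TORC1, since the related kinase Tor2 can take Tor1's place in the complex. The series asked how the pathways of Snf1 and TORC1 act on each other.

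The deletions themselves were checked first. SNF1 (YDR477W, chromosome IV) had log2 levels of 8.88, 9.14 and 8.82 in tor1_N and 2.15, 2.15 and 2.15 in snf1-tor1_N. It was at least 61.7-fold lower in the double deletion, where it lay at the floor of the arrays, a level that is taken here as a group mean under log2 3. TOR1 (YJR066W) lay at the floor in both groups, with means of 2.27 and 2.27, against 7.86 in WT_N and 7.66 in snf1_N. These 4 groups therefore showed the deletions that their labels state. Of the genes next to SNF1, YDR476C fell by 0.40 ± 0.056 (SE, adjusted p = 2.47e-05, limma), and SNM1 changed by 0.18 ± 0.083 (adjusted p = 0.105, limma).

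All changes below are snf1-tor1_N minus tor1_N on the log2 scale, where 1 is a change of 2-fold, with the standard error (SE) of the fit and n = 3 arrays per group, and this number of arrays limits how precise they are. Array medians ran from 7.89 to 7.94 in tor1_N and from 7.96 to 7.99 in snf1-tor1_N, and arrays of 1 of these groups correlated across genes with r of at least 0.9956. Over the 6 arrays the leading principal component held 75.1% of the variance and separated the groups, from -14.33 to -13.48 in tor1_N and from 12.70 to 15.62 in snf1-tor1_N. Whether the replicates within a group came from separate starting cultures is not stated beyond the word biological. The p-values therefore measure only the spread between arrays of a group. That spread was estimated per gene over all 24 arrays in 8 groups, not from these 6 alone. A gene at the floor in other groups can thus get an SE too small for these 6. The standard deviation of RSB1, for example, was 0.447 in tor1_N but 0.0007 in tor1_C. In such bulk samples fewer cells of a type and less RNA per cell cannot be told apart.

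With SNF1 deleted in tor1Δ cells, the phosphate transporter gene PHO84 and 15 of 20 genes of protein folding in the endoplasmic reticulum (ER) rose. Of the measured genes, 38 of 40 for respiratory complexes, 11 of 13 for the TCA cycle, 7 of 15 for glycogen and 7 of 11 for allantoin and urea use fell. In all, 1828 genes passed an adjusted p of 0.05 (limma with Benjamini-Hochberg adjustment), which is 33.5% of those tested. Of these 1183 were higher (21.7%) and 645 lower (11.8%), and the changes were mostly small, with a median size of 0.344 among the genes that passed. These 2 shares are the background for every count of list members given below for this comparison. At least 2-fold changes were found for 75 higher and 44 lower genes. The values of the 3 arrays of each group did not overlap for 1546 genes on the higher side (28.4%) and for 810 on the lower side (14.9%). The balance of higher and lower genes depended on the scaling. It was 64.7% higher as deposited, but 47.6% with each array centred on its median (800 higher and 882 lower) and 48.2% after another quantile normalization (827 and 887), so a small common shift of many genes cannot be read from these data.

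**Figure D1:**
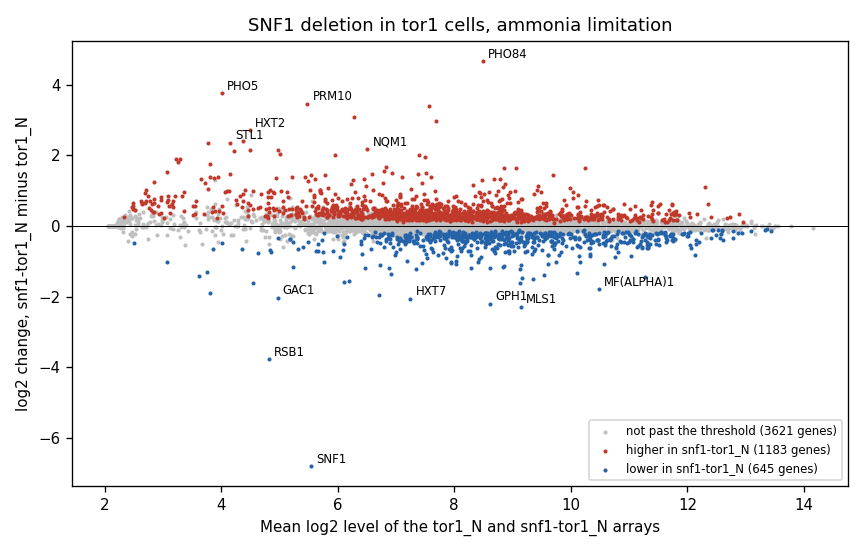
Change of each of 5449 genes (vertical axis, log2, snf1-tor1_N minus tor1_N) against its mean log2 level over the 6 arrays (horizontal axis), with the 1183 higher genes in red, the 645 lower genes in blue and all others in grey. Most coloured points lie within 1 unit of 0, PHO84 and PHO5 stand at the top, and RSB1 and the deleted SNF1 at the bottom.

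The largest rise was that of PHO84, treated with the phosphate genes below. PRM10 (YJL108C, chromosome X), named for its regulation by pheromone, rose by 3.46 ± 0.14 (adjusted p = 5.46e-12, limma), with array values of 3.79, 3.35 and 4.10 in tor1_N and 7.29, 7.08 and 7.26 in snf1-tor1_N. ULI1, a gene known to be induced by the unfolded protein response, rose by 3.09 ± 0.18, and YET2, whose product is an ER membrane protein, rose by 2.98 ± 0.19. None of these 3 genes had overlapping arrays. STL1, for a glycerol symporter of the plasma membrane, rose at least 5.03-fold from the floor. NQM1, for a transaldolase, rose by 2.18 ± 0.21, DOG1, for a phosphatase of 2-deoxyglucose phosphate, by 2.14 ± 0.19, and FMP45, for a membrane protein of the cell cortex, by 2.14 ± 0.27. GIP1, for a meiotic subunit of protein phosphatase 1, rose by 2.03 ± 0.20. YBL100W-A, a Gag protein gene of a Ty element with many near-identical copies, rose by 3.39 ± 1.09 (adjusted p = 0.0229, limma). Its groups did not overlap, but the call was lost without tor1_N array 11 (adjusted p = 0.073), without snf1-tor1_N array 1 (adjusted p = 0.0772) or without snf1-tor1_N array 2 (adjusted p = 0.0509).

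Among the falls, RSB1 (YOR049C, chromosome XV) came next after SNF1. Its product is a membrane protein linked to the export of sphingoid bases. Its array values were 7.21, 6.35 and 6.55 in tor1_N and 3.01, 3.04 and 2.75 in snf1-tor1_N, so it went from well above the floor to the floor, at least 13-fold lower. SUR2, for the hydroxylase that makes phytosphingosine, fell by 1.13 ± 0.077 (adjusted p = 4.72e-09, limma). MLS1 (YNL117W, chromosome XIV), for malate synthase, had values of 10.30, 10.38 and 10.20 in tor1_N and 8.01, 8.07 and 7.94 in snf1-tor1_N and fell by 2.29 ± 0.15, with every array of the double deletion below every tor1Δ array. UIP4, a gene of the nuclear envelope, fell by 1.96 ± 0.15, and NIT1, of the nitrilase family, fell by 1.46 ± 0.14. GPG1, for a proposed partner of the G protein Gpa2, fell by 1.62 ± 0.16. The aquaporin gene AQY1 fell by 1.62 ± 0.39 in the fit of all arrays (adjusted p = 0.00352, limma), while a fit of the 6 arrays alone gave an adjusted p of 0.0824.

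The largest rise of the comparison was in a phosphate gene. In yeast, low phosphate lets the factor Pho4 switch on the transporter gene PHO84, secreted acid phosphatases such as PHO5 and the VTC genes, whose products make polyphosphate in the vacuole, and the cyclin-dependent kinase Pho85 with Pho80 restrains Pho4. PHO84 (YML123C, chromosome XIII) had values of 5.97, 6.15 and 6.34 in tor1_N and 10.81, 10.73 and 10.95 in snf1-tor1_N. It rose by 4.68 ± 0.13 (adjusted p = 2.53e-14, limma), and every array of the double deletion stood above every tor1Δ array. PHO5 (YBR093C, chromosome II) had values of 2.14, 2.14 and 2.14 in tor1_N and 5.79, 5.89 and 6.03 in snf1-tor1_N, a rise of at least 7.47-fold from the floor, again with no overlap.

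Other phosphate genes moved less. The sodium-coupled phosphate transporter gene PHO89 rose by 0.99 ± 0.23, from array values of 3.54, 4.18 and 4.41 in tor1_N and 5.09, 5.21 and 4.81 in snf1-tor1_N. DIA3, related to the acid phosphatase genes, rose by 1.32 ± 0.22, and PHO11, for another acid phosphatase, by 0.52 ± 0.11. PHO12, a close copy of PHO11, was not analysed here. Of the VTC genes, VTC3 rose by 0.87 ± 0.06 and VTC4 by 0.23 ± 0.072, while VTC1 and VTC2 changed by 0.12 and 0.02 and did not pass. SPL2 (YHR136C, chromosome VIII), for a regulator that holds back low-affinity phosphate uptake, moved from 2.33 to 3.17, just above the floor, with an adjusted p of 0.0203 (limma). That call did not hold after another quantile normalization (adjusted p = 0.127), with values under log2 3 set to log2 3 (0.631), without tor1_N array 11 (0.0536) or without snf1-tor1_N array 1 (0.0576). The low-affinity transporter gene PHO87 rose by 0.24 ± 0.07, and PHO90 and PHO91 did not pass.

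Taken over 4 phosphate lists with 29 measured genes, 13 rose and 1 fell, with a median change of 0.191 against 0.0465 over all genes tested. The gene that fell was PHO85, by 0.26 ± 0.049. PHO4, PHO80 and PHO81 changed by -0.21, -0.05 and 0.15 and did not pass. Among the genes of signalling the 4 that rose were SPL2, PHO86, VIP1 and SND3. Their count was 1 without tor1_N array 11 or with median-centred arrays, and 2 without snf1-tor1_N array 1.

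**Figure D2:**
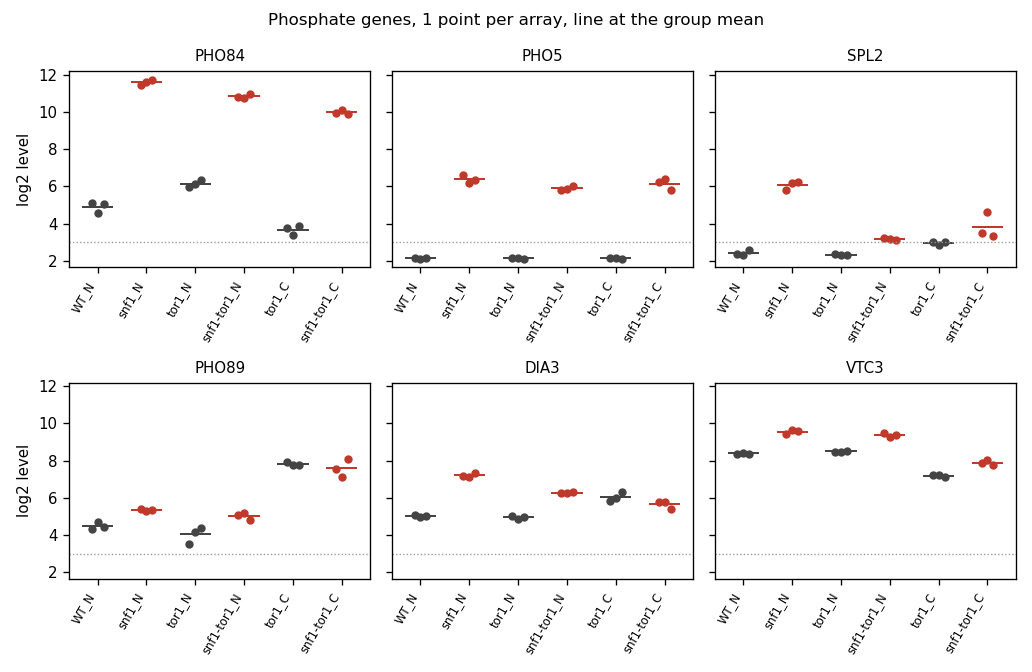
Log2 levels of 6 phosphate genes (vertical axis) on each array of 6 groups (horizontal axis), with groups that lack SNF1 in red, group means as lines and the floor of log2 3 dotted. PHO84 and PHO5 stood higher in every red group than in its neighbour with SNF1, while SPL2 reached a mean of 6.09 in snf1_N and 3.17 in snf1-tor1_N.

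The phosphate rise was then set beside that in cells with TOR1. There PHO84 went from 4.92 to 11.59, a change of 6.67. The change in tor1Δ cells minus that change was -1.99 ± 0.19 (adjusted p = 1.35e-05, limma), with a higher starting level without TOR1 (6.15 against 4.92) and a lower end level (10.83 against 11.59). SPL2 had values of 2.36, 2.30 and 2.61 in WT_N and 5.82, 6.19 and 6.26 in snf1_N. Its values were 2.37, 2.33 and 2.30 in tor1_N and 3.24, 3.17 and 3.10 in snf1-tor1_N. In cells with TOR1 the deletion thus raised SPL2 at least 8.52-fold. The fitted difference for SPL2 was -2.83 ± 0.37 (adjusted p = 0.0006, limma), but WT_N and tor1_N lay at the floor, so its size was not measured. For PHO5 the difference of -0.49 ± 0.18 did not pass (adjusted p = 0.252, limma). Under glucose limitation the deletion in tor1Δ cells changed PHO84 by 6.32 and took PHO5 from the floor to 6.15.

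Genes of the protein-folding machinery of the ER formed a second set of large rises. The ER folds and glycosylates secreted proteins, and its chaperones and oxidoreductases are known targets of the unfolded protein response, in which the sensor Ire1 activates the factor Hac1. The ER lists were written after the values had been seen, so their counts are descriptions. Of 20 genes of ER folding 15 rose and 2, FMO1 and ERV2, fell, with a median change of 0.651. The 2 became 1 without tor1_N array 11, snf1-tor1_N array 1 or snf1-tor1_N array 3. ERO1 (YML130C, chromosome XIII), for the oxidase that feeds disulfide formation, had values of 9.54, 9.26 and 9.48 in tor1_N and 11.24, 10.88 and 11.10 in snf1-tor1_N and rose by 1.64 ± 0.14 (adjusted p = 5.99e-08, limma). KAR2 (YJL034W, chromosome X), for the Hsp70 chaperone BiP, had values of 11.80, 11.72 and 11.75 in tor1_N and 12.84, 12.80 and 12.90 in snf1-tor1_N and rose by 1.09 ± 0.054. The groups did not overlap for either gene.

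The partners of Kar2 rose with it. SIL1 and LHS1, for its nucleotide exchange factors, rose by 1.65 ± 0.083 and 1.33 ± 0.15. JEM1 and SCJ1, for J-domain proteins of the ER, rose by 1.38 ± 0.20 and 1.02 ± 0.066. Of the disulfide isomerase family, EUG1 rose by 1.497 ± 0.072, MPD1 by 1.30 ± 0.08, PDI1 by 0.62 ± 0.046 and MPD2 by 0.26 ± 0.086, while EPS1 changed by -0.002 and did not pass. HAC1 itself rose by 0.63 ± 0.085 and IRE1 by 0.26 ± 0.075. The arrays measure HAC1 RNA as a whole and not its splicing.

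**Figure D3:**
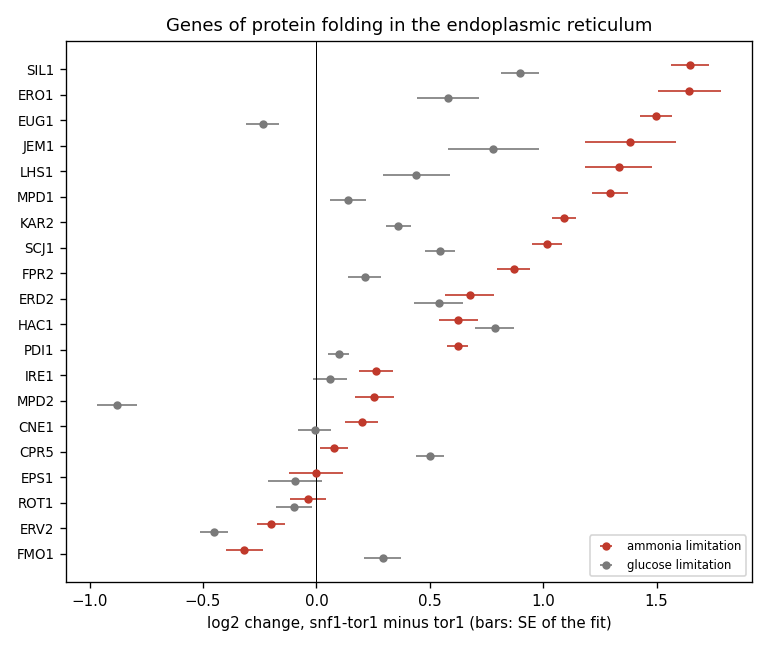
Log2 change (horizontal axis, snf1-tor1 minus tor1, bars are the SE of the fit) of 20 genes of ER protein folding, under ammonia limitation in red and glucose limitation in grey. Under ammonia limitation 8 genes stood above 1, from SCJ1 to SIL1, and under glucose limitation none did.

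Neighbouring ER lists moved the same way. Of 24 genes of N-glycosylation 19 rose and 0 fell (limma, adjusted p), with an unadjusted p under 0.05 for 19 and 0, led by ALG7, for the first enzyme of the lipid-linked sugar chain, at 0.59 ± 0.065. Of 15 genes of translocation and signal peptidase 11 rose, led by SEC63 at 0.70 ± 0.081 and SEC62 at 0.58 ± 0.063, and SPC1 fell by 0.23 ± 0.052. The 11 became 7 in a fit of the 6 arrays alone or with median-centred arrays. Of 16 genes of ER-associated degradation 9 rose, with DER1 at 0.84 ± 0.073 and the ubiquitin ligase gene HRD1 at 0.64 ± 0.071. Of 20 genes of glycosylphosphatidylinositol (GPI) anchor synthesis 13 rose, with MCD4 at 1.65 ± 0.081, and SPT14 fell by 0.27 ± 0.071. In cells with TOR1, the medians of the folding and N-glycosylation lists were 0.610 and 0.250. Of the 95 genes of the 5 ER lists 0 passed the test of the difference between tor1Δ and TOR1 cells (limma, adjusted p), while 5 had an unadjusted p under 0.05. Over all 5449 genes 38 (0.697%) passed that test and 748 had an unadjusted p under 0.05. A count of 0 is near that share, so it is no result about the ER genes.

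Respiratory genes fell nearly as a block, by small amounts. Of 40 measured nuclear genes of complexes II, III and IV and the ATP synthase, 38 fell, 1 rose and TIM11 did not pass, with a median change of -0.431. Over all genes 11.8% fell. All 5 genes of succinate dehydrogenase (complex II) fell, and SDH2 (YLL041C, chromosome XII), for its iron-sulfur subunit, had values of 11.29, 11.16 and 11.12 in tor1_N and 10.15, 10.42 and 10.38 in snf1-tor1_N, with no overlap. It fell by 0.87 ± 0.073 (adjusted p = 5.37e-08, limma). All 9 genes of complex III fell, from QCR2 at -0.48 ± 0.047 to QCR8 at -0.22 ± 0.029. All 9 of complex IV fell, the hypoxic subunit gene COX5B by 0.90 ± 0.11 and its aerobic counterpart COX5A by 0.43 ± 0.057.

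Of 17 genes of the ATP synthase and its regulators 15 fell, among them INH1, for an inhibitor of the enzyme's hydrolase activity, at -0.62 ± 0.046 and ATP3, for the gamma subunit, at -0.60 ± 0.085. STF2 rose by 0.38 ± 0.11. Of the carriers and dehydrogenases around the chain, CYC7, for the minor cytochrome c, fell by 1.20 ± 0.12, GUT2, for a glycerol-3-phosphate dehydrogenase, by 0.48 ± 0.14 and NDI1, for the internal NADH dehydrogenase, by 0.31 ± 0.11, while CYC1, for the main cytochrome c, changed by -0.04 and did not pass. DLD1, for a lactate dehydrogenase, rose by 0.96 ± 0.065. The 3 lower genes became 1 without snf1-tor1_N array 2.

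Of 13 TCA cycle genes 11 fell, CIT3, for a second mitochondrial citrate synthase, rose at least 1.42-fold from the floor and LSC1 did not pass, with a median of -0.392. The CIT3 call was lost after another quantile normalization, with values under log2 3 set to log2 3, and when dim genes were left out. KGD2, for a subunit of the 2-oxoglutarate dehydrogenase, fell by 0.75 ± 0.062, CIT1, for the main citrate synthase, by 0.56 ± 0.057 and MDH1, for malate dehydrogenase, by 0.50 ± 0.051. HAP4 (YKL109W, chromosome XI), for the activating subunit of the factor that drives these genes, had values of 9.83, 9.70 and 9.64 in tor1_N and 9.15, 8.91 and 9.005 in snf1-tor1_N and fell by 0.70 ± 0.064 (adjusted p = 1.79e-07, limma), with no overlap of the groups. HAP5 fell by 0.25 ± 0.077, and HAP1, HAP2 and HAP3 did not pass. These 2 falls became 1 without tor1_N array 9 or without snf1-tor1_N array 1. Mitochondrial ribosome genes had 23 of 66 lower and RSM19 and MRPL32 higher. The lower count moved with the setting, to 6 in a fit of the 6 arrays alone, to 12 without tor1_N array 9, to 14 without snf1-tor1_N array 1 and to 35 with median-centred arrays.

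**Figure D4:**
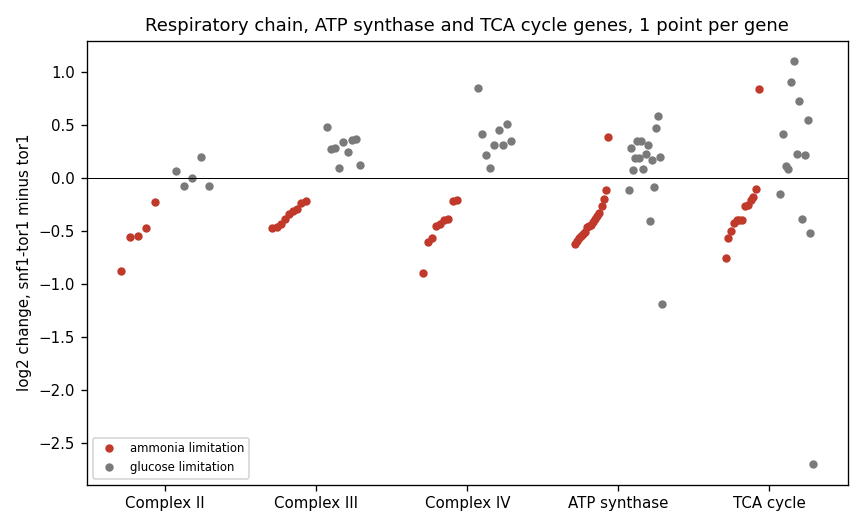
Log2 change (vertical axis, snf1-tor1 minus tor1) of each gene of complexes II, III and IV, the ATP synthase and the TCA cycle (horizontal axis), under ammonia limitation in red and glucose limitation in grey. Under ammonia limitation all but STF2 and CIT3 lie below 0, and under glucose limitation the genes of complexes III and IV lie above 0.

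Under glucose limitation the same deletion in tor1Δ cells had raised 28 of the 40 respiratory genes and lowered 3, with a median of 0.233. Of all 5449 genes 2031 were higher there and 1018 lower. The difference between limitations was tested directly and was negative for 37 of the 40 and positive for 1. Over all genes 2255 passed that test, which is 41.4%. HAP4 changed by 0.57 under glucose limitation, and its difference was -1.27 ± 0.091 (adjusted p = 2.96e-09, limma). In cells with TOR1 under ammonia limitation 39 of the 40 fell and 1 rose, with a median of -0.503. Of all 5449 genes 928 fell there and 766 rose.

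Genes of glucose sensing and uptake included large changes each way. Yeast carries hexose transporters of high and low affinity, and the glucose sensors Snf3 and Rgt2 act on them through Mth1, Std1 and the repressor Rgt1. Of 16 such genes 3 rose and 3 fell, where 21.7% of all genes were higher and 11.8% lower. HXT2 (YMR011W, chromosome XIII), for a transporter of high affinity, had values of 2.97, 3.01 and 3.46 in tor1_N and 5.44, 5.97 and 6.14 in snf1-tor1_N and rose by 2.71 ± 0.25 (adjusted p = 2.32e-07, limma). HXT5 rose by 1.998 ± 0.37 and HXT1, for the main low-affinity transporter, by 1.44 ± 0.12. HXT7 (YDR342C, chromosome IV), for a high-affinity transporter nearly identical to HXT6, had values of 8.63, 8.14 and 8.07 in tor1_N and 6.26, 5.92 and 6.46 in snf1-tor1_N and fell by 2.06 ± 0.15. HXT4 fell by 1.18 ± 0.24 and MTH1 by 1.03 ± 0.14. None of the 6 genes had overlapping groups, and 5 others lay at the floor in both. The 3 lower genes became 5 without snf1-tor1_N array 1 and 6 with median-centred arrays.

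Of 17 transcription factors and regulators downstream of Snf1, 7 fell and NRG2 and MIG3 rose, the latter 2 becoming 1 without snf1-tor1_N array 1. Besides MTH1 and HAP4 those that fell were MSN4 by 0.99 ± 0.10, MIG2 by 0.71 ± 0.17, MIG1 by 0.54 ± 0.10, ERT1 by 0.29 ± 0.058 and GIS1 by 0.29 ± 0.094. MIG1 and MIG2 encode glucose repressors, and MSN4 a factor of the general stress response. CAT8 and ADR1, for the activators of gluconeogenic genes, changed by -0.11 and 0.12 and did not pass. Among the subunits of the Snf1 complex and its upstream kinases, TOS3, for 1 of the kinases that activate Snf1, rose by 1.37 ± 0.14 (adjusted p = 6.18e-07, limma) and SIP1 rose by 0.32 ± 0.077, while SIP2 fell by 0.45 ± 0.11 and SNF4 by 0.32 ± 0.068.

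Gluconeogenic genes showed little. Of 11 genes, MLS1 and MDH2 fell, the latter by 0.63 ± 0.13, and ICL1, for isocitrate lyase, rose by 0.44 ± 0.17 (adjusted p = 0.0481, limma), a call lost in each of the 6 fits without 1 of these arrays. FBP1, ADY2 and SFC1 were at the floor on both sides, and PCK1 changed by -0.07 and did not pass. In glycolysis HXK1, for a hexokinase, fell by 1.51 ± 0.075 (adjusted p = 6.56e-11, limma), against -1.04 in cells with TOR1. TDH1, ENO1 and GPM1, for enzymes of lower glycolysis, fell by 0.45, 0.38 and 0.14, and PYK2 rose by 0.38 ± 0.072. Of the maltose genes MAL32, for a maltase with a near-identical copy, fell at least 3.4-fold to the floor, and MAL31, MAL11 and MAL33 fell by 0.72, 0.66 and 0.34, though a fit of the 6 arrays alone called 2 of the 4. Of 9 genes of alcoholic fermentation 4 fell and 2 rose, where 11.8% of all genes were lower and 21.7% higher. The largest fall among the 9 was that of PDC6, by 1.01 ± 0.15.

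Storage and redox genes divided by pathway. Of 15 glycogen genes 7 fell and PGM1 rose, with a median of -0.263. Over all genes 11.8% fell and 21.7% rose. GPH1 (YPR160W, chromosome XVI), for the phosphorylase that breaks glycogen down, had values of 9.72, 9.86 and 9.58 in tor1_N and 7.69, 7.32 and 7.53 in snf1-tor1_N and fell by 2.20 ± 0.14 (adjusted p = 1.63e-09, limma). GAC1, for the phosphatase subunit that activates glycogen synthase, had values of 6.002, 6.07 and 5.89 in tor1_N and 4.04, 3.89 and 3.95 in snf1-tor1_N and fell by 2.03 ± 0.15. For both genes all 3 arrays of the double deletion lay below all tor1Δ arrays. GLG1, GLC3, PIG2, PGM2 and GDB1 fell by between 0.38 and 0.74, so genes of both synthesis and breakdown were among those that fell, while the synthase genes GSY1 and GSY2 changed by -0.25 and 0.06 and did not pass. Of 7 trehalose genes NTH2 fell by 0.41 ± 0.10 and the others did not pass. Of 28 stress genes of Msn2 and Msn4, 9 fell, led by GAD1 at -1.37 ± 0.20, and DDR48, ALD3 and CTT1 rose. Without tor1_N array 11 the 3 higher became 1.

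Of 11 genes of the pentose phosphate pathway 7 rose, among them TKL2, for a transketolase, at least 2.51-fold from the floor. SOL3, for a 6-phosphogluconolactonase, rose by 0.63 ± 0.049 and ZWF1, for glucose-6-phosphate dehydrogenase, by 0.44 ± 0.091. SOL4 fell by 1.004 ± 0.15, with RKI1 and RPE1 lower too, and the 3 lower became 1 when any 1 of the 3 tor1_N arrays was left out and also without snf1-tor1_N array 1. Of 11 glycerol genes 5 rose. The glycerol-3-phosphate dehydrogenase gene GPD1 rose by 0.58 ± 0.087 and the phosphatase genes GPP1 and GPP2 by 0.67 ± 0.092 and 0.72 ± 0.11, with DAK1 and STL1 also higher, and both aquaporin genes, AQY1 and AQY2, fell. These 2 became 1 without tor1_N array 9, snf1-tor1_N array 1 or snf1-tor1_N array 3, and 0 in a fit of the 6 arrays alone.

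Several genes for the use of poor nitrogen sources fell. In yeast these genes are driven by the GATA factors Gln3 and Gat1, held back by Dal80 and Gzf3, and TORC1 keeps Gln3 out of the nucleus. DAL80 (YKR034W, chromosome XI) had values of 11.45, 11.51 and 11.39 in tor1_N and 10.54, 10.66 and 10.64 in snf1-tor1_N and fell by 0.84 ± 0.12 (adjusted p = 3.46e-05, limma), lower on every array of the double deletion. GAT1 fell by 0.43 ± 0.10. GLN3 rose by 0.26 ± 0.062, a call lost after another quantile normalization, and GZF3 and URE2 did not pass. Of 11 genes of allantoin and urea use 7 fell and 0 rose (limma, adjusted p), against 8 and 0 at an unadjusted p under 0.05. They were DUR3, for the urea transporter, at -1.20 ± 0.16, the allantoin permease gene DAL4 at -0.91 ± 0.17, DAL1 at -0.75 ± 0.11, DCG1 at -0.59 ± 0.15, DAL5 at -0.54 ± 0.12, DAL2 at -0.37 ± 0.12 and DAL82 at -0.25 ± 0.075.

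All 5 genes listed for peptide transport fell, which include the repressor gene CUP9 and DAL5, already counted with the allantoin genes. OPT2 (YPR194C, chromosome XVI), for an oligopeptide transporter, had values of 11.82, 12.10 and 12.07 in tor1_N and 10.62, 10.39 and 10.63 in snf1-tor1_N and fell by 1.45 ± 0.12 (adjusted p = 5.10e-08, limma), and its groups lay apart. OPT1 fell by 1.06 ± 0.12, PTR2, for the transporter of short peptides, by 0.86 ± 0.18, DAL5, which carries allantoate and peptides, by 0.54 ± 0.12 and CUP9, for the repressor of PTR2, by 0.21 ± 0.063. In the assimilation of ammonium, GDH3, for a minor glutamate dehydrogenase, fell by 1.54 ± 0.13, GLT1, for glutamate synthase, by 0.52 ± 0.052 and GLN1, for glutamine synthetase, by 0.20 ± 0.065, while GDH2 rose by 0.34 ± 0.088 and the permease gene MEP1 by 0.39 ± 0.069. The ammonium permease gene MEP2 changed by -0.23 and did not pass. Of 12 genes for proline, GABA, arginine and asparagine use 5 fell, with PUT4, for the proline permease, at -0.63 ± 0.14, and ASP1 and CAR1 rose, the arginase gene CAR1 by 1.33 ± 0.10.

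Of 18 amino acid permease genes 6 rose and AGP1 and ALP1 fell, near the 21.7% and 11.8% of all genes. The 6 became 3 when dim genes were left out, and 1 of the 2 falls was lost without tor1_N array 9. GNP1, for a glutamine permease, rose at least 2.38-fold from the floor, the tryptophan permease gene TAT2 rose by 1.55 ± 0.18, the S-methylmethionine permease gene MMP1 by 1.44 ± 0.20 and the histidine permease gene HIP1 by 1.31 ± 0.12. The general permease gene GAP1 changed by -0.35 ± 0.17 and did not pass (adjusted p = 0.121, limma). Targets of Gcn4 in amino acid synthesis held 14 of 54 that rose and 8 that fell, near the 21.7% and 11.8% of all genes. There 9 rose without tor1_N array 9, 5 fell without snf1-tor1_N array 1, and with median-centred arrays the counts were 8 and 13.

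Some genes of ribosome production rose by small amounts. Of 92 ribosome biogenesis genes 27 rose and 0 fell (limma, adjusted p), where 21.7% of all genes were higher and 11.8% lower. At an unadjusted p under 0.05 the counts were 42 and 0. The list's median was 0.244, and NMD3, for a nuclear export factor of the large subunit, stood at the top at 0.56 ± 0.11. Next came RRP1 at 0.55 ± 0.12 and MPP10 at 0.53 ± 0.13. The 27 became 16 without snf1-tor1_N array 3, 17 with median-centred arrays and 42 in a fit of the 12 N-lim arrays. Of 127 cytosolic ribosomal protein genes 2, RPS17B and RPS22B, rose and 4, RPS27A, RPL19A, RPS0B and RPL21B, fell. A second, dimmer probe set of RPS17B changed by -0.105 and did not pass (adjusted p = 0.382, limma). The 2 higher became 0 without tor1_N array 9 or 11 or snf1-tor1_N array 2 or 3. The 4 lower became 1 without snf1-tor1_N array 1, 2 without tor1_N array 9 and 10 with median-centred arrays, and many of these genes have near-identical copies. Of the TORC1 genes, TCO89 rose by 0.28 ± 0.079, but not without snf1-tor1_N array 1, while TOR2, KOG1 and LST8 changed by 0.06, -0.04 and 0.11 and did not pass. Of 18 genes for TORC1 effectors SCH9 and GLN3 rose, SCH9 by 0.17 ± 0.06, and RIM15, for a kinase of quiescence, fell by 0.49 ± 0.11. Of SCH9 and GLN3, 1 was called without tor1_N array 9, without snf1-tor1_N array 3 or once arrays were centred on their medians, and a second quantile normalization left 0.

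Mating genes were read both as markers of cell type and as targets of the pheromone pathway. All 7 a-specific genes were measured well above the floor, such as the a-factor gene MFA1 with means of 13.51 and 13.44 and the alpha-factor receptor gene STE2 with 11.97 and 11.90. BAR1 rose by 0.30 ± 0.10, but not without tor1_N array 9, snf1-tor1_N array 1 or snf1-tor1_N array 3, and AGA2 fell by 0.61 ± 0.073, and the summed linear level of the 7 ran from 27306 to 29741 over the tor1_N arrays and from 25016 to 28964 over the snf1-tor1_N arrays. Of 5 alpha-specific genes MF(ALPHA)2 lay at the floor and SAG1 did not pass. The alpha-factor gene MF(ALPHA)1 had values of 11.31, 11.42 and 11.38 in tor1_N and 9.44, 9.58 and 9.74 in snf1-tor1_N and fell by 1.78 ± 0.15 (adjusted p = 8.72e-08, limma). All arrays of the double deletion were lower, but well above the floor. AFB1 rose by 0.90 ± 0.15 and STE3, for the a-factor receptor, by 0.96 ± 0.14. The summed linear level of the 5 ran from 2740 to 2946 in tor1_N and from 977 to 1097 in snf1-tor1_N. MF(ALPHA)1 made up most of this sum in both groups. The lower sum therefore shows the fall of MF(ALPHA)1 and not of the set, in which 2 genes rose and 1 fell. The part of this sum in other results was not tested. Of 6 meiotic markers 3 were at the floor on both sides and IME2 and SPO11 rose, with sums from 72 to 79 and from 80 to 96.

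Of 19 pheromone-regulated genes 4 rose and 5 fell. Over all genes 21.7% were higher and 11.8% lower. PRM5 had values of 6.80, 6.15 and 6.23 in tor1_N and 8.50, 8.36 and 8.35 in snf1-tor1_N and rose by 2.01 ± 0.14 (adjusted p = 9.92e-09, limma), and PRM3 and PRM4 rose by 0.76 ± 0.11 and 0.49 ± 0.15 beside PRM10. PRM6 had values of 5.53, 6.04 and 5.86 in tor1_N and 4.58, 4.77 and 4.61 in snf1-tor1_N and fell by 1.16 ± 0.12. The groups overlapped for neither gene. AGA1, FIG2, PRM2 and KAR4 fell by 0.56, 0.45, 0.39 and 0.26. The 5 lower became 3 without tor1_N array 10 and 8 after another quantile normalization. Of 17 genes of the pathway itself KSS1, STE11, GPA1 and STE12 rose, KSS1 by 0.75 ± 0.11, and FAR1 fell by 0.44 ± 0.087. Those 4 became 1 without snf1-tor1_N array 1 and 2 without tor1_N array 9 or after another quantile normalization.

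The effect of the deletion was next compared between tor1Δ cells and cells with TOR1 over all genes. These comparisons share no arrays. In cells with TOR1, 1694 genes (31.1%) passed. Of the 1183 genes higher in tor1Δ cells 595 were also higher there, which is 50.3% of the former and 77.7% of the 766 higher in cells with TOR1, and 6 were lower. Of the 645 lower genes 508 were also lower (78.8%, and 54.7% of the 928 lower in cells with TOR1) and 0 were higher (limma, adjusted p), with 1 higher at an unadjusted p under 0.05. Across genes, which are not independent replicates, the changes correlated with r of 0.869 and a rank correlation of 0.758. All 119 genes with a change of at least 2-fold in tor1Δ cells had the same sign in cells with TOR1, and 111 of them passed there too.

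The difference itself, the effect in tor1Δ cells minus the effect in TOR1 cells, passed for 38 genes (0.697%), 32 positive and 6 negative, and 748 had an unadjusted p under 0.05. This count was sensitive. It was 15 without snf1_N array 10, 20 without WT_N array 10 or without tor1_N array 11, 22 without WT_N array 11 and 23 without snf1-tor1_N array 1, and 4 after dim genes were left out. With median-centred arrays it was 19, with 10 positive and 9 negative, and after another quantile normalization 18, with 11 and 7.

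Genes of mating stood among the 38. Of the 19 pheromone-regulated genes 7 were positive, namely PRM6, PRM5, PRM3, FIG1, KAR5, AGA1 and KAR4, as were AFB1 and SAG1 of the 5 alpha-specific genes and the kinase gene FUS3. The adjusted p was close to the threshold for KAR4 (0.0479), SAG1 (0.0457) and FUS3 (0.0442, limma). The single calls of KAR5, AGA1, KAR4, SAG1 and FUS3 were not followed under other settings. PRM6 fell in both backgrounds, but from 6.53 to 3.72 in cells with TOR1 and from 5.81 to 4.65 in tor1Δ cells, a difference of 1.66 ± 0.17 (adjusted p = 2.60e-05, limma). PRM5 had values of 6.89, 7.07 and 7.003 in WT_N and 7.92, 7.79 and 7.72 in snf1_N, a change of 0.82, and the difference was 1.19 ± 0.21 (adjusted p = 0.00823, limma). FIG1 changed by -1.11 in cells with TOR1 and by -0.15 in tor1Δ cells, a difference of 0.96 ± 0.17 (adjusted p = 0.00891, limma), though not in a fit of the 12 N-lim arrays (adjusted p = 0.0941) or after another quantile normalization (0.103). The PRM3 difference of 0.97 ± 0.15 was also lost with the 12 N-lim arrays (adjusted p = 0.0572). For AFB1 the difference of the 2 effects was 0.98 ± 0.21 (adjusted p = 0.03, limma), and leaving out an array ended this call in 8 of 12 cases.

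The 6 negative genes were SPL2, PHO84, RSB1, OPT2, HXK1 and SLZ1. SLZ1, named after its values were seen, lay under the floor in all 4 groups. RSB1 had values of 6.99, 6.74 and 6.76 in WT_N and 4.64, 4.47 and 5.04 in snf1_N, so it fell in both backgrounds and reached the floor in snf1-tor1_N. The fitted difference for RSB1 was -1.66 ± 0.22 (adjusted p = 0.000652, limma), and with 1 group at the floor its size was not measured. OPT2 fell by less in cells with TOR1, where it changed by -0.62, and the difference was -0.83 ± 0.17 (adjusted p = 0.03, limma). That call was lost in 7 of the 12 fits without 1 array, and the HXK1 call in 11 of 12.

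**Figure D5:**
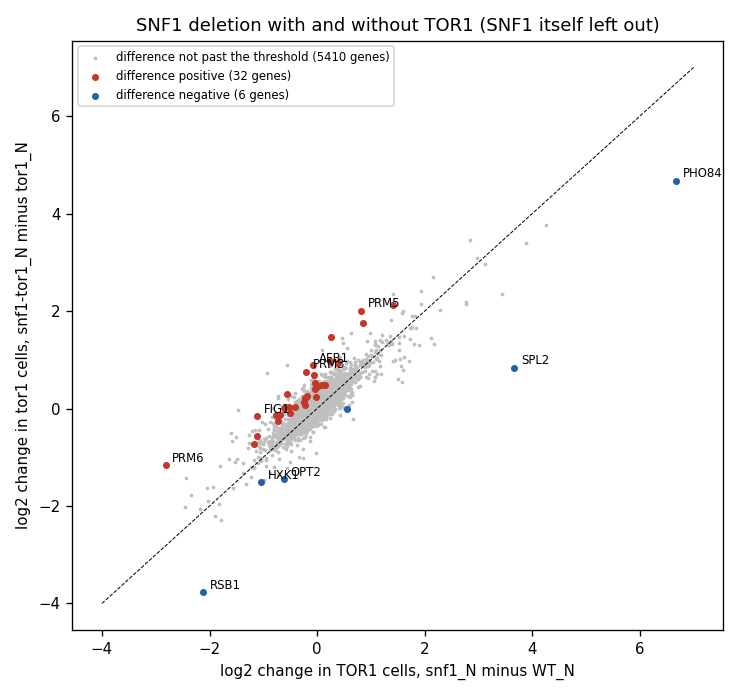
Log2 change of each gene with the SNF1 deletion in tor1Δ cells (vertical axis) against that in cells with TOR1 (horizontal axis), both under ammonia limitation, with equal change on the dashed line and SNF1 left out. The 32 genes with a positive difference are in red and the 6 with a negative one in blue, with SPL2 and PHO84 farthest below the line.

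Under glucose limitation the deletion in tor1Δ cells gave another picture. There 3049 genes (56%) passed. Of the 645 genes lower in N-lim 221 were also lower in C-lim (34.3% of the former, 21.7% of the 1018 lower in C-lim) and 244 were higher (37.8%). Of the 1183 higher genes 631 were also higher (53.3%, and 31.1% of the 2031) and 142 lower (12%). Across genes the changes correlated with r of 0.178. Of the 119 genes with at least 2-fold changes in N-lim, 55 passed with the same sign in C-lim and 31 with the opposite sign.

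Among the genes that rose in N-lim and fell in C-lim were STL1, which went from 6.89 to the floor in C-lim, NQM1, which changed by -2.39, HXT2 by -1.92, HXT5 by -2.01 and TKL2 by -4.76. HXT2 had C-lim values of 11.76, 11.69 and 11.73 in tor1_C and 9.72, 9.43 and 10.26 in snf1-tor1_C. MF(ALPHA)1 went the other way, with a change of 1.63 in C-lim and values of 4.58, 4.44 and 4.62 in tor1_C and 6.17, 6.17 and 6.17 in snf1-tor1_C. So did PTR2, with a change of 3.65, and EEB1, for an ethyl ester synthase, which fell by 0.52 ± 0.091 in N-lim and changed by 4.48 in C-lim. Of the 8 genes named for a positive difference 6, namely ADH2, FDH1, RGI2, YDL218W, ADY2 and FAT3, lay at the floor in both N-lim groups and in snf1-tor1_C, so the size of their difference was not measured. In C-lim ADH2 went from 13.11 to the floor, at least 1107-fold lower, and ADY2 from 10.81 to the floor, at least 225-fold lower. ADH2, FDH1, ADY2, RGI2 and FAT3 are known as genes of ethanol, formate and acetate use, respiratory growth and fatty acid uptake. Of the 28 stress genes 27 fell in C-lim, against 9 in N-lim. Of all 5449 genes 1018 fell in C-lim and 645 in N-lim.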

How the data were processed

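RNA of 24 chemostat cultures in 8 groups of 3 was read on Affymetrix yeast arrays. The authors deposited log2 values per probe set, made with RMA in affy per the submitters' processing notes. No source used here gives their versions or the set of arrays normalized together. Of 5716 probe sets, 5498 were named by 1 gene of the platform annotation, with 12 symbols updated through RefSeq (assembly R64), and 218 had no name. The brightest probe set stood for each of 47 genes with several, which left 5449 genes.

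Group means of all 24 arrays were fitted with limma 3.58.1 in R 4.3.3 (lmFit and eBayes) and p-values were Benjamini-Hochberg adjusted over all genes, with a threshold of 0.05. The fit was tested on simulated data. A group mean under log2 3 was taken as the floor, and a fold from or to it is a bound against log2 3. The number of arrays, 3 per group, limits the precision. The comparison and the gene lists were chosen with earlier results of these data known, and 5 ER lists were written after the values had been seen. Genes were named by rule, as up to 15 each way with the largest change and no overlap of arrays, up to 8 each way in each difference, and the members of lists of up to 20 genes or up to 8 of longer ones. What the replicate numbers mark is not stated. Between WT_N and snf1_N 3 of 3 pairs with equal numbers deviated together (r over 0.1), while tor1_N and snf1-tor1_N share 0 numbers. Whatever the numbers mark thus cannot be told apart from the SNF1 deletion in tor1Δ cells, and it also enters the difference by TOR1. Over the series 22 of 33 such pairs did so, with r from -0.305 to 0.437.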

Additional observations from a re-analysis of the deposited data

Results flagged for a closer look

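The effect of the SNF1 deletion differed between tor1Δ cells and cells with TOR1 for 38 genes, by a test of the difference itself (limma, adjusted p). The named positive differences were those of PRM6 (1.66), YPL113C (1.22), PRM5 (1.19), AFB1 (0.98), PRM3 (0.97), FIG1 (0.96), YDR541C (0.91) and CSR2 (0.85) on the log2 scale. The YDR541C difference fell to 0.546 after another quantile normalization and did not pass (adjusted p = 0.339, limma), and this gene lay at the floor in both N-lim groups that have SNF1. The fitted negative ones were those of SPL2 (-2.83), PHO84 (-1.99), RSB1 (-1.66), OPT2 (-0.83) and HXK1 (-0.47). SPL2 lay at the floor in WT_N and tor1_N and RSB1 in snf1-tor1_N, so the sizes for SPL2 and RSB1 were not measured. Leaving out 1 array ended the OPT2 call in 7 of 12 fits and the HXK1 call in 11 of 12. PHO84 thus rose in both backgrounds, by less in tor1Δ cells, while SPL2 rose from the floor to 6.09 with TOR1 and to 3.17 without it.

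The same test between ammonia and glucose limitation in tor1Δ cells passed for 2255 genes. The fitted positive differences of the named genes were those of ADH2 (10.36), FDH1 (9.67), RGI2 (9.66), YDL218W (8.66), ADY2 (8.52), GRE1 (7.98), FAT3 (7.04) and SPS100 (6.82). For 6 of them, ADH2, FDH1, RGI2, YDL218W, ADY2 and FAT3, all groups of this test but tor1_C lay at the floor, so the fitted values give neither size nor order. As bounds against log2 3, these 6 fell in C-lim by at least 87.2-fold (FAT3) to at least 1107-fold (ADH2). The fitted negative ones were those of YGR035C (-5.65), EEB1 (-4.999), YGR109W-A (-4.81), PTR2 (-4.51), YJL213W (-4.24), RSB1 (-3.77), SRL4 (-3.55) and MF(ALPHA)1 (-3.41). RSB1 lay at the floor in snf1-tor1_N and both C-lim groups, SRL4 in all but snf1-tor1_C and YGR109W-A in tor1_C, so the sizes for these 3 genes were not measured either. In C-lim SRL4 rose at least 8.93-fold and YGR109W-A at least 10.6-fold from the floor.

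Probe sets that the platform annotation does not name lie outside the comparisons by gene. Of 218, 67 passed the threshold for snf1-tor1_N against tor1_N (30.7%), 41 higher and 26 lower, and 9 changed at least 2-fold.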

How the results depend on the processing

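The number of genes past the threshold for snf1-tor1_N against tor1_N kept within 1.5 times of 1828 under every alternative run, from 1297 in a fit of the 6 arrays alone to 1977 in a fit of the 12 N-lim arrays. Leaving out 1 array gave 1518 to 1713. With 1362 dim genes left out it was 1460. The number of genes with a difference by TOR1 was the least stable, 19 with median-centred arrays, 18 after another quantile normalization, 4 without dim genes and from 15 to 39 without 1 array. The other counts stayed within 1.5 times of their value, the difference by limitation from 2061 to 2224 without 1 array. Of 2550 counts of list members recomputed, 372 moved by over 1.5 times, and the cause was not tested. The next counts cover genes named for the largest changes or a difference by TOR1, the deleted genes and the neighbours of SNF1. Genes named only as list members were left out of them. Of 621 recomputed changes 604 kept their side of the threshold, 15 lost it, 2 gained it and 0 turned their sign. Of 264 recomputed differences by TOR1 225 kept their side of the threshold and 39 lost it. No paired analysis was possible because tor1_N and snf1-tor1_N share no replicate number. With the replicate number as a random block over all arrays the counts were 1824, and 43 for the difference by TOR1. With the replicate number as a fixed term in a fit of the 6 arrays of snf1_N and WT_N, 2056 genes passed. The same 6 arrays without that term gave 2053. Low signal limits the genes at the floor, of which 291 lay under it in all 8 groups.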

Other observations

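Genes of drug export were among those not yet described that rose in tor1Δ cells with SNF1 deleted. Of 12 multidrug resistance genes 8 rose and PDR15, for a transporter, fell by 1.17 ± 0.11, with a median of 0.328 against 0.0465 over all genes. Over all genes 21.7% were higher and 11.8% lower. RTA1, linked to drug resistance, had values of 2.28, 2.28 and 2.28 in tor1_N and 3.90, 4.603 and 4.01 in snf1-tor1_N and rose at least 2.25-fold from the floor. PDR5, for the main drug pump, rose by 0.65 ± 0.094, PDR10 by 0.63 ± 0.14 and FLR1 by 0.59 ± 0.12. Of 26 ergosterol genes 9 rose, led by ECM22, for a sterol-responsive factor, at 0.56 ± 0.15 and ERG4 at 0.53 ± 0.084, and ERG20 fell by 0.20 ± 0.065. The ERG20 call was lost without tor1_N array 10 or snf1-tor1_N array 1. Of 19 sphingolipid genes 6 rose and 4 fell. ORM2, for a regulator of the first enzyme, rose by 0.74 ± 0.06 and LCB1, for a subunit of that enzyme, by 0.40 ± 0.07, while RSB1 and SUR2 were among those that fell. In phospholipid synthesis 7 of 20 fell, among them INO1, for inositol synthesis, by 0.34 ± 0.067, and CHO2 rose by 0.38 ± 0.061.

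Cell wall, vitamin and metal genes also moved in part. YPS3, for a surface protease, rose by 1.51 ± 0.18, CWP1, for a wall protein, by 1.47 ± 0.12 and SLT2, for the kinase of the cell wall integrity pathway, by 0.54 ± 0.10. In all 8 of 23 such genes rose, against 21.7% of all genes, and SED1, GSC2 and CWP2 fell. Only 1 of these 3 was called without tor1_N array 9 or 11 or without snf1-tor1_N array 2 or 3. THI4, for thiamine synthesis, had values of 6.32, 5.83 and 5.85 in tor1_N and 7.57, 7.84 and 7.60 in snf1-tor1_N and rose by 1.67 ± 0.17. The zinc transporter genes ZRT1 and ZRT2 fell by 0.83 ± 0.13 and 0.58 ± 0.092, while 5 of 8 zinc genes rose, a count of 3 without tor1_N array 11 or snf1-tor1_N array 1. In cells with TOR1, ZRT1 changed by -0.26 and did not pass, and the difference was not past the threshold (adjusted p = 0.187, limma). CTR1, for the copper transporter, fell by 1.03 ± 0.16. Of the aryl-alcohol dehydrogenase and old yellow enzyme genes AAD6 rose by 1.48 ± 0.29, AAD4 by 0.89 ± 0.14 and OYE2 by 0.63 ± 0.056, and OYE3 fell by 0.80 ± 0.16. A second, dimmer probe set of AAD4 changed by 0.162 and did not pass (adjusted p = 0.405, limma). Of 18 meiosis and sporulation genes 7 rose, 8 were at the floor on both sides and RME1, for a repressor of entry into meiosis, fell by 0.31 ± 0.08. After dim genes were left out 1 of the 7 was called.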
